A study of Mus musculus with 6 samples.

Results

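The genes described here encode the mitochondrial ribosome and the main proteins of mitochondrial transcription and translation, 88 of the 35523 genes with counts in the P20 forebrain RNA-Seq of *Slc13a4*+/- and wild-type mice. They comprise 49 genes with symbols beginning Mrpl and a digit, 29 beginning Mrps and a digit, and 10 factors, namely *Guf1*, *Tfb1m*, *Tfb2m*, *Tfam*, *Polrmt*, *Tufm*, *Gfm1*, *Gfm2*, *Mtif2* and *Mtif3*. The Mrpl and Mrps genes are called large-subunit and small-subunit ribosomal proteins here after their symbols alone. Whether each product sits in that subunit, or in the ribosome at all, was not checked. The ribosomal proteins and most factors were taken by symbol and function from the GENCODE M21 annotation. *Guf1* and *Tfb2m* were chosen by their measured rise in the *Slc13a4*+/- mice, so their own genotype differences are a description, and where a count of genes past a threshold includes either of them, that is the choice itself and supports nothing. The question was whether that rise extended to the other 86 genes, and which annotated transcripts of *Tfb2m* carried its counts.

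Total RNA was taken from the whole forebrain of C57BL/6 mice at postnatal day 20. Mice Het_1024, Het_1025 and Het_1027 were heterozygous for Nas2Del, so that 1 allele of *Slc13a4* was absent constitutively, and mice WT_1016, WT_1018 and WT_1026 were wild type. *Slc13a4* encodes a sodium-coupled sulfate transporter. The study crossed *Slc13a4*+/- males with wild-type females and used littermates as controls, but which mouse came from which litter is not stated, and p-values measure the spread between these 6 mice only.

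Mitochondria keep a small genome that encodes core subunits of the respiratory chain, and they translate its mRNAs on a ribosome of their own. All proteins of that ribosome, and all protein factors that transcribe and translate the genome, are encoded in the nucleus and imported. In the brain, neurons depend heavily on the respiratory chain that this system builds, and inherited defects in it often affect the brain.

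The estimated counts summed to 60340337 to 80410582 per mouse, and values are given as CPM (counts per 1000000 after TMM scaling between libraries) or as TPM (transcripts per 1000000, which also accounts for transcript length). The CPM of *Slc13a4* itself lay between 5.42 and 6.57 in heterozygous and between 8.23 and 10.4 in wild-type animals, lower in the former as labelled. Over all 17096 genes tested, edgeR's quasi-likelihood test called 1 gene at a Benjamini-Hochberg adjusted p under 0.1 (0.00585%), and the DESeq2 Wald test with transcript-length offsets called 86 of 17659 (0.487%). Mouse WT_1026 stood apart from WT_1016 and WT_1018. Without it edgeR called 223 genes, so the main results on the ribosomal proteins are given with and without it. The summed CPM of 5 choroid plexus markers was 383 to 446 in *Slc13a4*+/- and 463 to 469 in wild-type mice, that of 6 microglia markers 273 to 281 and 295 to 298, that of 6 astrocyte markers 1886 to 1992 and 2038 to 2077, and that of 5 endothelial markers 168 to 180 and 185 to 196, so these 4 lists did not overlap between genotypes. The 7 neuron markers overlapped at 5066 to 5211 and 4956 to 5322, as did the 6 oligodendrocyte markers (8012 to 9337 and 9087 to 10120), the 3 markers of oligodendrocyte precursors (329 to 350 and 344 to 356) and the 5 erythroid markers (626 to 758 and 586 to 950). No marker of any list was at 0, and the part of these lists in the results below was not tested.

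*Tfb2m* encodes the factor that opens mitochondrial promoters for the polymerase encoded by *Polrmt*. Its transcripts are shown first, because their sequence bears on how its rise was measured. The gene lies on the minus strand of chromosome 1 (chr1:179528055-179546267, GRCm38, ENSMUSG00000026492). GENCODE M21 lists 1 protein-coding transcript, Tfb2m-201, with 8 exons and 2449 bases, and 4 of the type processed_transcript, which have no annotated reading frame. None is of the retained_intron or nonsense_mediated_decay type. The shortest of the 3 processed transcripts with counts, Tfb2m-205, has 458 bases in 2 exons. It joins 35 bases of exon 5 of Tfb2m-201 to the first 423 bases of its exon 8 and skips exons 6 and 7, 63 and 161 bases long. The 30 bases on either side of that join, and of the joins of Tfb2m-201 that it replaces, are shown from 5′ to 3′ on the strand of the gene, in lower case before the join and in capitals after it. All of these bases are coding sequence of Tfb2m-201.

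Tfb2m-205, exon 5 (chr1:179533633-179533662) to exon 8 (chr1:179529325-179529354): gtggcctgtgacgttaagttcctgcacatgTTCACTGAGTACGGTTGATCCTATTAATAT
Tfb2m-201, exon 5 (chr1:179533633-179533662) to exon 6 (chr1:179532098-179532127): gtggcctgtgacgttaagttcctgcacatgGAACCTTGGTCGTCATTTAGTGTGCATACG
Tfb2m-201, exon 7 (chr1:179531304-179531333) to exon 8 (chr1:179529325-179529354): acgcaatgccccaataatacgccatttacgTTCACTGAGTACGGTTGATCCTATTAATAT

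Of the 428 stretches of 31 bases in Tfb2m-205, 399 also lie in Tfb2m-201. The other 29 span the join, and none of them occurs in any other transcript of GENCODE M21. A read of Tfb2m-205 that does not cross the join therefore matches Tfb2m-201 as well, and Salmon divides such reads between the transcripts by a model.

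Summed over transcripts, *Tfb2m* had a CPM of 21.90, 22.03 and 22.41 in the *Slc13a4*+/- mice and 21.15, 21.46 and 21.13 in the wild-type mice. The genotypes did not overlap, but their means of 22.1 ± 0.26 and 21.2 ± 0.18 (SD, n = 3) differed by only 0.06 on the log2 scale (SE 0.04, edgeR). The protein-coding transcript did not carry this difference. Tfb2m-201 had a CPM of 20.2, 20.3 and 20.5 in *Slc13a4*+/- and 20.2, 20.4 and 20.4 in wild-type mice, which is an overlap.

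The processed transcripts had a CPM of 1.699, 1.687 and 1.871 in the *Slc13a4*+/- mice and 1.003, 1.055 and 0.7178 in the wild-type mice. Tfb2m-205 accounted for most of that gap, with 50.1, 51.2 and 55.9 estimated counts in the *Slc13a4*+/- mice, while it was listed at 0 in all 3 wild-type mice. The other processed transcripts overlapped between genotypes, with 71.8, 45.0 and 65.5 counts of Tfb2m-203 in *Slc13a4*+/- and 52.9, 52.4 and 35.2 in wild-type mice, and at most 20.8 counts of Tfb2m-202 in any mouse. Tfb2m-204 was listed at 0 in all 6 mice.

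The protein-coding transcript thus held 92.2%, 92.3% and 91.7% of the *Tfb2m* counts in the *Slc13a4*+/- mice and 95.3%, 95.1% and 96.6% in the wild-type mice. The means were 92.1% ± 0.37 and 95.7% ± 0.83 (SD, n = 3), a difference of -3.57 percentage points with no overlap. In TPM, where a short transcript weighs more, the shares were 70.9% and 88.3% on average. A pattern like that of Tfb2m-205, with at least 20 counts in all 3 mice of a genotype and under 0.5 in all 3 of the other, was shown by 72 of the 43343 transcripts that reach 20 counts in all mice of a genotype (0.166%), 45 of them in *Slc13a4*+/- mice only and 27 in wild-type mice only. Among the 255 such transcripts of the 88 genes, Tfb2m-205 was the 1 with this pattern.

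The gain of a short transcript also lowered the average effective length over the *Tfb2m* transcripts, each weighted by its TPM. It was 1796, 1764 and 1748 bases in the *Slc13a4*+/- mice and 2107, 2104 and 2151 bases in the wild-type mice, apart by 0.26 on the log2 scale. With these lengths as offsets, the log2 fold change of *Tfb2m* was 0.31 in DESeq2 in place of 0.06, and it is this value that chose the gene. The DESeq2 value that chose *Guf1* was 0.25. Of the 86 genes not called, the next by adjusted p in DESeq2 was *Mrps23*, a small-subunit protein, at -0.27. Without offsets DESeq2 did not call *Tfb2m*.

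**Figure D1:**
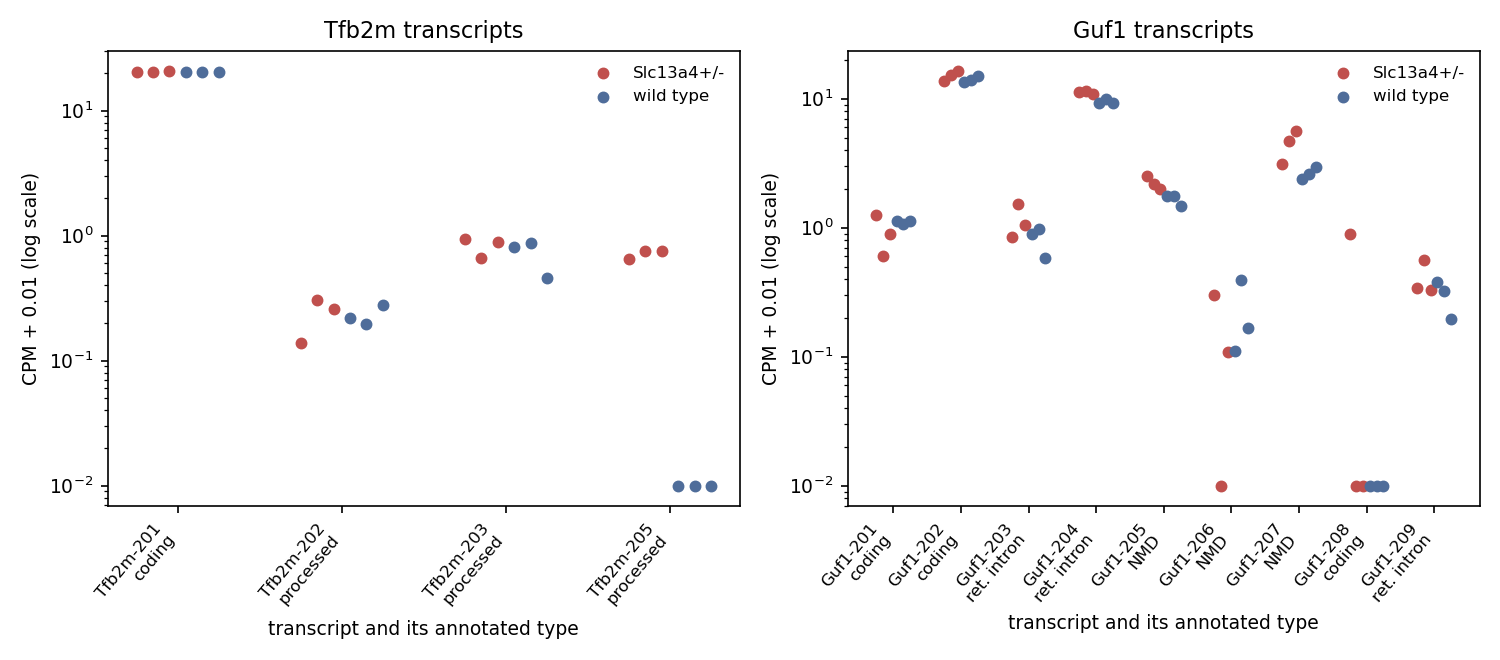
CPM of each annotated transcript of *Tfb2m* (left) and *Guf1* (right) with at least 10 estimated counts in any mouse, on a log axis after adding 0.01, with 1 point per mouse. Tfb2m-201 coincides between genotypes, and Tfb2m-205 lies between 0.645 and 0.747 CPM in the *Slc13a4*+/- mice and at 0, drawn at 0.01, in the wild-type mice.

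*Guf1* encodes a GTPase that acts on the mitochondrial ribosome during elongation and resembles the bacterial factor LepA. It lies on chromosome 5 (chr5:69556923-69575973, plus strand, ENSMUSG00000029208). Its CPM was 33.98, 36.31 and 37.11 in the *Slc13a4*+/- mice and 29.26, 31.02 and 30.55 in the wild-type mice. Every *Slc13a4*+/- mouse thus lay above every wild-type mouse, with means of 35.8 ± 1.63 and 30.3 ± 0.91 (SD, n = 3) and a log2 fold change of 0.24 (SE 0.04, edgeR). Its average transcript length barely differed, at 3270 and 3305 bases on average, so the offsets left its fold change in place.

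By Salmon's estimates, the gain in *Guf1* counts lay mostly outside its protein-coding transcripts. Of the difference in means, 2.31 CPM came from transcripts annotated as targets of nonsense-mediated decay, 2.10 from retained-intron transcripts and 1.11 from protein-coding ones. Salmon divides reads that match several transcripts by a model, and how much sequence the *Guf1* transcripts share was not tested. A protein-coding *Guf1* transcript of 1827 bases had 68.73 counts in Het_1024 and was listed at 0 in every other mouse. The decay targets had a CPM of 5.89, 6.85 and 7.75 in *Slc13a4*+/- and 4.22, 4.75 and 4.59 in wild-type mice, with no overlap. Retained-intron transcripts had 12.4, 13.5 and 12.2 against 10.6, 11.2 and 9.96, also with no overlap. Protein-coding transcripts had 15.74, 15.98 and 17.13 against 14.49, 15.02 and 16. Here the genotypes overlapped, with WT_1026 above Het_1024 and just above Het_1025. With protein-coding transcripts alone, edgeR gave *Guf1* a log2 fold change of 0.12 (SE 0.06). As a share of *Guf1* counts, retained-intron transcripts overlapped between genotypes, at 32.95% to 37.12% in *Slc13a4*+/- and 32.6% to 36.24% in wild-type mice. The share of decay targets did not overlap, at 17.33% to 20.89% against 14.41% to 15.32%. Over the whole library the retained-intron share was higher in the *Slc13a4*+/- mice, at 2.03% to 2.45% against 1.81% to 2.02%. The whole-library share of decay targets overlapped, at 1.932% to 1.964% against 1.893% to 1.935%. The part of these whole-library shares in the *Guf1* difference was not tested.

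The ribosomal proteins did not share these rises, and most of them had slightly lower counts in the *Slc13a4*+/- mice. Of the 78 ribosomal protein genes, 68 had an edgeR log2 fold change below 0 (87.2%), against 52.2% of all genes tested. The differences were small, with a median log2 fold change of -0.06 and a range of -0.15 to 0.11, while the median over all genes was -0.0045. The large subunit had a median of -0.06 with 43 of 49 below 0, and the small subunit a median of -0.04 with 25 of 29 below 0. The median SE of a single gene was 0.05. In whole forebrain, fewer cells of a type and less RNA per cell cannot be told apart.

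No single gene among the 86 passed the adjusted threshold. EdgeR called 0 of them, the DESeq2 Wald test with or without length offsets called 0, and limma-voom called 0. Without WT_1026 the DESeq2 test with offsets called *Mrps23* and *Mrpl28*, both lower, besides *Tfb2m* and *Guf1*. In that fit 85 of the 88 genes had an adjusted p. *Mrps23* and *Mrpl28* make up 2.56% of the ribosomal protein genes, while the fit called 720 of all 11013 genes with an adjusted p (6.54%). At an unadjusted p under 0.05 in edgeR, 5 were lower, all of the large subunit. They make up 6.41% of the ribosomal protein genes, against 4.17% of all genes. Of the 86, 0 were higher at that p, against 4.98% of all genes.

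**Figure D2:**
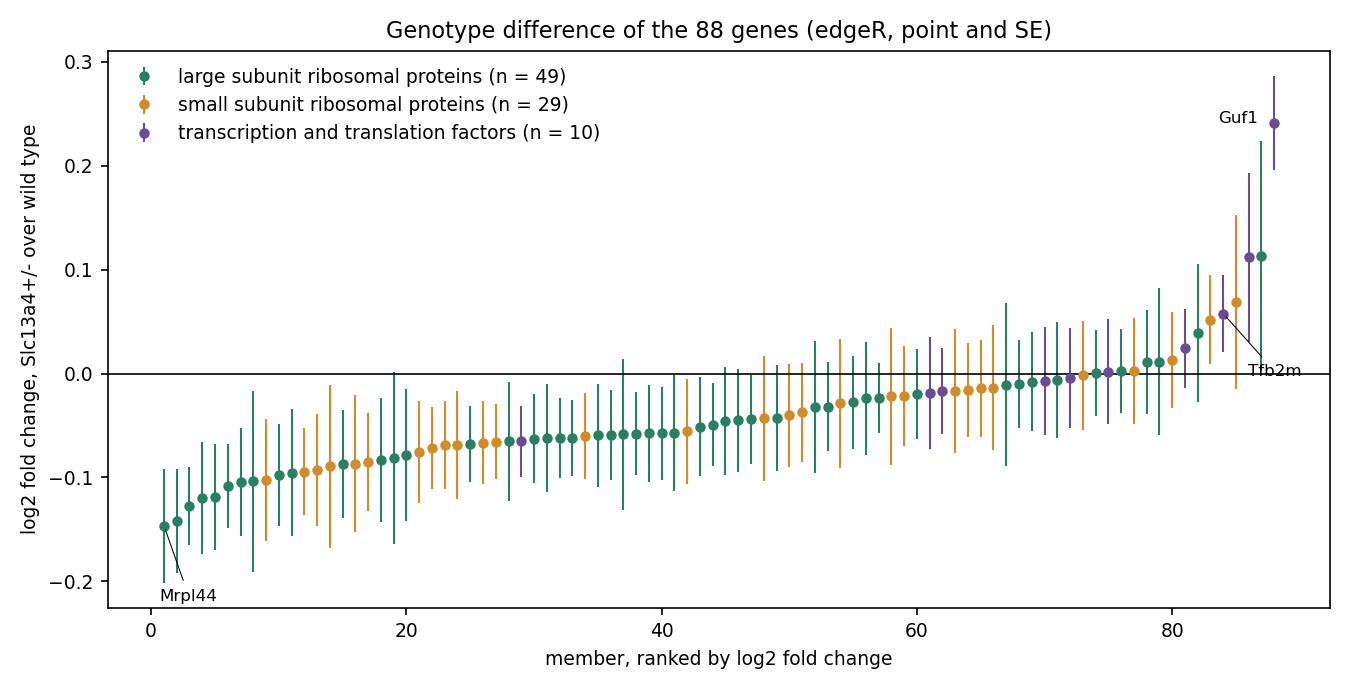
EdgeR log2 fold change of *Slc13a4*+/- over wild type for each of the 88 genes (y axis), ranked from lowest to highest (x axis) and coloured by role, with bars of 1 SE. Most ribosomal proteins lie between -0.15 and 0, and *Guf1*, one of the 2 genes chosen by their rise, stands at 0.24.

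The 5 lower genes lie on different chromosomes or far apart, at chr3:87919506-87923672 (*Mrpl24*), chr1:79776018-79781445 (*Mrpl44*), chr7:78775236-78783531 (*Mrpl46*), chr7:105803206-105811099 (*Mrpl17*) and chr17:26123500-26126613 (*Mrpl28*) of GRCm38. *Mrpl24* had the smallest p of the ribosomal protein genes. Its CPM was 26.7, 26.8 and 25.7 in the *Slc13a4*+/- mice and 28.7, 29.6 and 28.2 in the wild-type mice, with no overlap and a log2 fold change of -0.13 (SE 0.04, edgeR adjusted p 0.499). *Mrpl44*, whose product has a fold related to ribonuclease III, had 19.8, 19.1 and 19.6 against 22.5, 22.4 and 19.9. Here WT_1026 lay only just above the *Slc13a4*+/- mice, and the log2 fold change was -0.15 (SE 0.05, edgeR adjusted p 0.518). Leaving out WT_1026 brought the value of *Mrpl44* to -0.20, and leaving out WT_1016 to -0.11.

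*Mrpl46* had 18.2, 17.7 and 18.3 CPM against 19.8, 19.5 and 19.1, which is no overlap, and a log2 fold change of -0.11 (SE 0.04). *Mrpl17* had 24.5, 23.6 and 24.8 CPM against 28.2, 25.6 and 25.3, with a log2 fold change of -0.12 (SE 0.05). WT_1016 was the highest mouse, and leaving it out brought this value to -0.06, while leaving out WT_1026 brought it to -0.15. *Mrpl28* had 35.3, 33.8 and 37.2 CPM against 40.5, 39.7 and 37.1, so that WT_1026 lay among the *Slc13a4*+/- mice, and a log2 fold change of -0.14 (SE 0.05). Leaving out WT_1026 brought the value of *Mrpl28* to -0.18, and leaving out WT_1016 to -0.11.

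*Mrps21* was next by p, with 25.6, 24.8 and 25.7 CPM against 28.2, 26.9 and 26.1 (log2 fold change -0.09, SE 0.04, unadjusted p 0.051 in edgeR). Without WT_1016 this value was -0.06, and without WT_1026 it was -0.12. *Mrps21* encodes a small-subunit protein and had the highest TPM of all 88 genes. In all, 12 ribosomal protein genes had all 3 *Slc13a4*+/- mice below all 3 wild-type mice (15.4%, against 7.70% of all genes), namely *Mrpl16*, *Mrpl17*, *Mrpl24*, *Mrpl34*, *Mrpl35*, *Mrpl38*, *Mrpl44*, *Mrpl46*, *Mrpl50*, *Mrpl55*, *Mrps5* and *Mrps21*. None had all 3 above, an order that 7.26% of all genes showed.

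The 6 ribosomal protein genes above 0 with the smallest p were *Mrps9*, *Mrpl23*, *Mrps28*, *Mrpl1*, *Mrps22* and *Mrpl13*. Their log2 fold changes were 0.05 for *Mrps9*, 0.11 for *Mrpl23*, 0.07 for *Mrps28*, 0.04 for *Mrpl1*, and 0.01 for both *Mrps22* and *Mrpl13*, with SEs of 0.04 to 0.11. The genotypes overlapped for all 6. The value of *Mrpl23*, the gene of lowest level, ran from 0.03 without Het_1025 to 0.17 without Het_1024.

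The ribosomal proteins as a group set the wild-type mice apart from one another. For each gene the log2 ratio of each mouse to the mean over the 6 mice was taken, and the median over the 78 genes was -0.0013, -0.05 and -0.02 in Het_1024, Het_1025 and Het_1027. It was 0.06 in WT_1016, 0.06 in WT_1018 and -0.05 in WT_1026. Mice WT_1016 and WT_1018 stood above the rest, and WT_1026 lay below 2 of the 3 *Slc13a4*+/- mice, so the genotypes overlapped.

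WT_1016 had the highest CPM for 35 of the 78 genes and WT_1018 for another 35, while Het_1025 was lowest for 34 and WT_1026 for 25. Both subunits showed the same split. The median of the large subunit was 0.07 in WT_1016, 0.06 in WT_1018 and -0.04 in WT_1026, and that of the small subunit 0.05, 0.07 and -0.05.

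**Figure D3:**
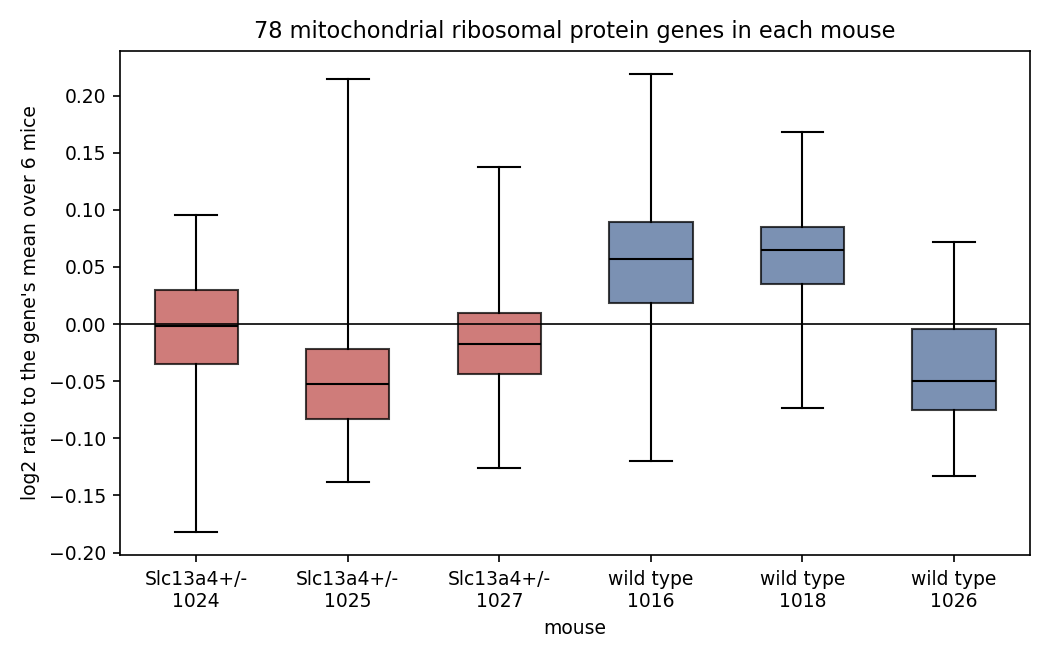
Log2 ratio of CPM to the gene's mean over the 6 mice (y axis) for the 78 mitochondrial ribosomal protein genes in each mouse (x axis), with the median as a line, quartiles as the box and the full range as whiskers. The medians of WT_1016 and WT_1018, both 0.06, sit above those of the other 4 mice, which lie between -0.05 and -0.0013 and include WT_1026.

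The size and direction of the tilt depended on which wild-type mice were compared. Without WT_1026 the median log2 fold change was -0.08, with 74 of 78 genes below 0 (49.1% of all genes) and 24 lower at an unadjusted p under 0.05 (8.60% of all genes). None of these 24 passed the adjusted threshold in edgeR. Without WT_1016 the median was -0.03, with 57 of 78 below 0 (49.5% of all genes). Mice WT_1016 and WT_1018 also carry the 2 lowest animal numbers. Among the 4 mice of higher number, in which WT_1026 is the 1 wild-type mouse, the median was 0.04 and 23 of 78 genes lay below 0 (43.9% of all genes). The animal numbers and the genotype cannot be told apart for WT_1016 and WT_1018, since no *Slc13a4*+/- mouse has a number near theirs.

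The oligodendrocyte, erythroid and neuron marker lists also set WT_1016 and WT_1018 apart. The astrocyte, microglia and choroid plexus sums were highest in these mice too. For these lists, however, WT_1026 lay close to them, at 2038, 294.5 and 463.1 CPM, and above every *Slc13a4*+/- mouse. The 6 oligodendrocyte markers summed to 10030 and 10120 CPM in mice WT_1016 and WT_1018 and to 8012 to 9337 CPM in the other 4. The 5 erythroid markers summed to 826 and 950 CPM in WT_1016 and WT_1018 and to 586 to 758 CPM in the other 4. The 7 neuron markers summed to 5009 and 4956 CPM in mice WT_1016 and WT_1018, the lowest values of the 6 mice, and to 5322 CPM in WT_1026, the highest. Their part in the tilt was not tested.

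The 8 factors that were not chosen by their rise had a median log2 fold change of -0.0057, with 3 above and 5 below 0. Of the transcription factors of the mitochondrial genome, *Tfam*, which packages and bends its DNA, had -0.02 (SE 0.05) and *Polrmt*, the polymerase, -0.0071 (SE 0.05). *Polrmt* CPM was 25.1, 27.5 and 26.2 against 27.9, 26.2 and 25.1, a full overlap. *Tfb1m*, which methylates the rRNA of the small subunit and is related to *Tfb2m* by sequence, had 5.70, 6.54 and 6.35 CPM against 6.07, 5.44 and 5.68. Its log2 fold change of 0.11 had an SE of 0.08, and the genotypes overlapped. The value was 0.02 with length offsets in edgeR and -0.03 on protein-coding transcripts alone, and it ran from 0.07 without Het_1025 to 0.17 without Het_1024.

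Of the translation factors, *Tufm*, the elongation factor that delivers aminoacyl-tRNA, was the 1 whose genotypes did not overlap. Its CPM was 58.0, 56.6 and 57.1 in the *Slc13a4*+/- mice and 60.1, 60.0 and 59.6 in the wild-type mice, a log2 fold change of -0.07 (SE 0.03, unadjusted p 0.0897 in edgeR). It was nearly as high in WT_1026 as in the other wild-type mice, unlike the ribosomal proteins by their median. Single ribosomal protein genes shared this, such as *Mrps5* at 41.55, 41.15 and 41.38 CPM in WT_1016, WT_1018 and WT_1026. *Gfm1*, which drives translocation, had 0.02 (SE 0.04) and *Gfm2*, which helps to recycle ribosomes, 0.0018 (SE 0.05). The initiation factors *Mtif2* and *Mtif3* had -0.02 (SE 0.04) and -0.0044 (SE 0.05). The genotypes overlapped for *Gfm1*, *Gfm2*, *Mtif2* and *Mtif3*.

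Transcript-length offsets moved the edgeR log2 fold change of 3 of the 88 genes by more than 0.1, against 9.64% of all genes. Besides *Tfb2m*, which the rule had chosen with these offsets, they were *Mrps23* and *Tfam*. *Mrps23* went from -0.07 to -0.27. Its 332-base transcript Mrps23-202 had 95.2 counts in WT_1016 and 48.2 in WT_1026 and was listed at 0 in the other 4 mice, while its most abundant transcript had 23.78 to 25.97 CPM throughout. *Tfam* went from -0.02 to -0.16. Its average length was 1653, 1669 and 1564 bases in the *Slc13a4*+/- mice and 1436, 1495 and 1519 in the wild-type mice. Its 472-base transcript Tfam-205 had 115 counts in WT_1016 alone. The 596-base Tfam-204 had 10.57, 6.888 and 11.46 TPM in *Slc13a4*+/- and 15.84, 11.76 and 13.65 in wild-type mice, with no overlap. The part of each transcript in the shift was not tested. As with Tfb2m-205, most 31-base stretches of Mrps23-202 and Tfam-205 recur in the main transcript of the gene, 283 of 302 and 433 of 442.

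**Figure D4:**
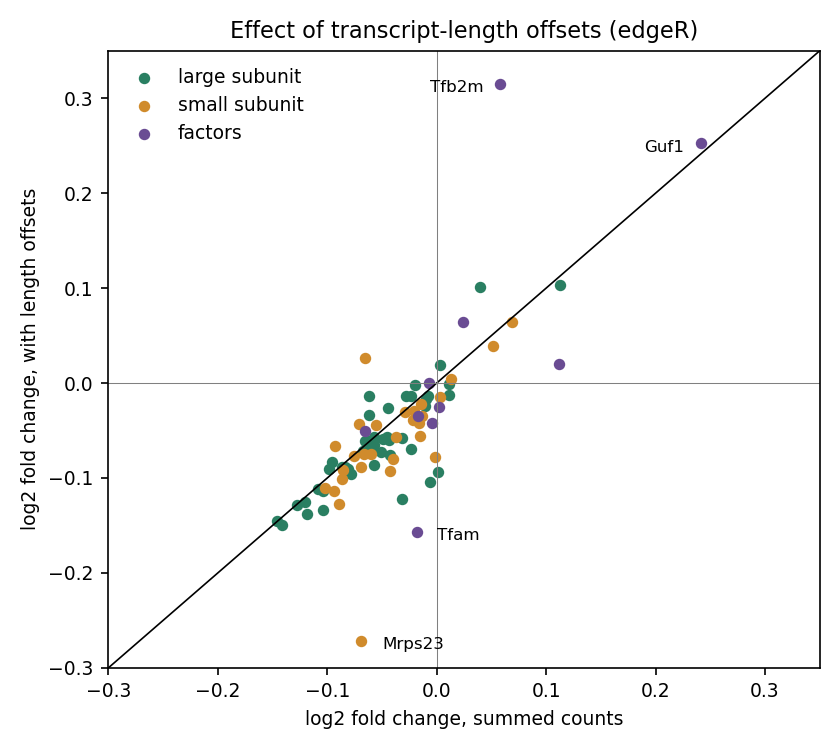
EdgeR log2 fold change of each of the 88 genes from summed counts (x axis) and with average transcript lengths as offsets (y axis), coloured by role, with the line of equality. *Tfb2m* moves from 0.06 to 0.32, *Mrps23* from -0.07 to -0.27 and *Tfam* from -0.02 to -0.16.

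Over all 88 genes, protein-coding transcripts held 86.1% ± 0.37 of the counts in *Slc13a4*+/- mice and 86.8% ± 0.34 in wild-type mice (SD, n = 3). Over the whole library this share was also lower in *Slc13a4*+/- mice, at 93.16% ± 0.35 against 93.65% ± 0.16. Among the 88 genes, the lowest share was that of *Mrpl15*, at 28.9% on average, and 58 genes had over 90%. With protein-coding transcripts alone, 59 of the 78 ribosomal protein genes lay below 0, with a median of -0.04.

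In level, the 78 ribosomal protein genes ranged from 6.22 to 179 TPM with a median of 52.7, a 28.7-fold range. The highest were *Mrps21* at 179 TPM, *Mrpl20* at 161 and *Mrpl30* at 151. Their ranges over mice were 171 to 193 for *Mrps21*, 152 to 168 for *Mrpl20* and 144 to 157 for *Mrpl30*, so *Mrps21* did not overlap *Mrpl20*, while *Mrpl20* and *Mrpl30* overlapped. The lowest were *Mrps30* at 15.5 TPM, *Mrpl1* at 15.2 and *Mrpl23* at 6.22. The ranges of *Mrps30* and *Mrpl1* overlapped, and *Mrpl23* lay below both at 5.40 to 6.81. The factors ranged from 8.58 for *Tfb1m* to 81.6 for *Tufm*, with *Tfb2m* at 23.4 and *Guf1* at 20.9.

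**Figure D5:**
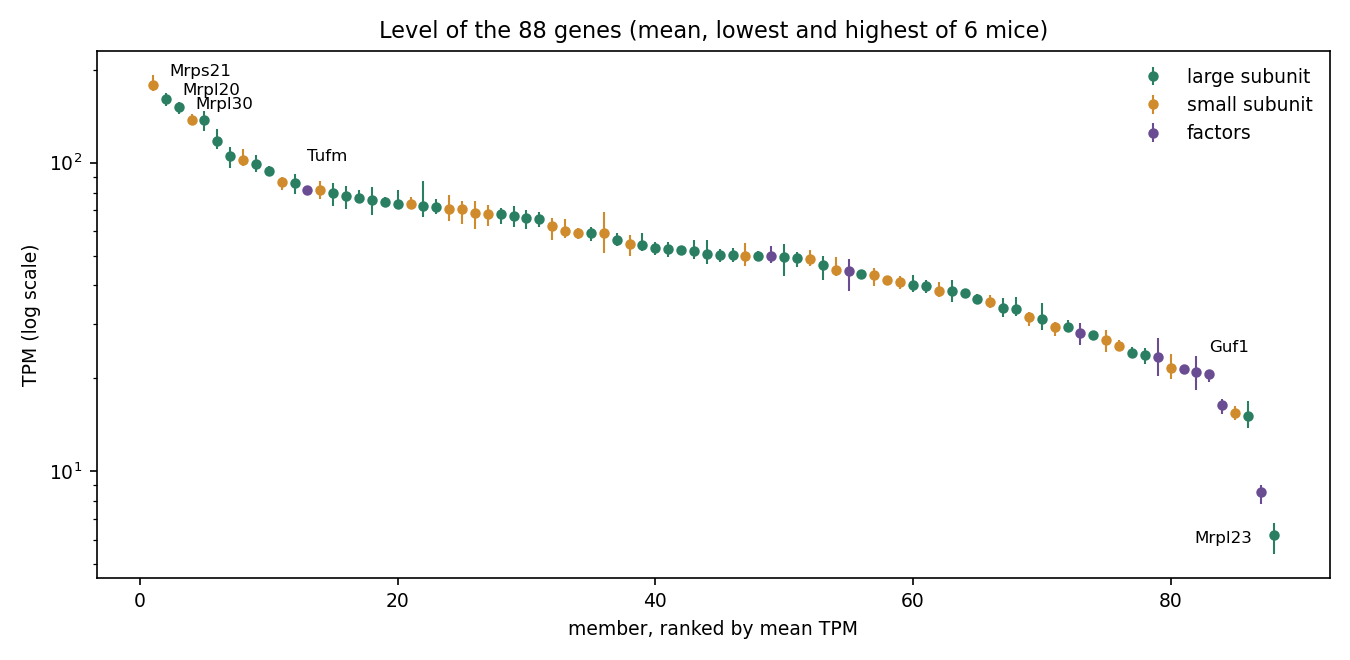
Mean TPM of the 88 genes over the 6 mice (y axis, log scale), ranked from highest to lowest (x axis) and coloured by role, with bars from the lowest to the highest mouse. Ribosomal proteins of both subunits mix along the range from *Mrps21* at 179 to *Mrpl23* at 6.22, and the factors lie mostly in the lower part.

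The ribosomal proteins varied little between mice. The coefficient of variation of CPM over the 6 mice had a median of 4.50%, against 5.90% over all genes, and the largest was 8.94% for *Mrpl12*. *Mrpl12*, which forms the flexible stalk of the large subunit, had 22.8, 27.0 and 25.8 CPM in *Slc13a4*+/- and 23.8, 29.0 and 27.1 in wild-type mice, with no order by genotype. GENCODE M21 names 5 pseudogenes after 3 of these genes, of which 1 had a mean of at least 1 CPM, and reads may be shared between copies.

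Some sequence motifs, which the choice by symbol did not use, were more frequent in the promoters of these genes than over all promoters. RefSeq promoter windows of GRCm38.p6, from 250 bases before to 50 after the start, were found for 77 of the 88 genes, in 83 windows. The windows were searched on both strands for 3 motifs of regulators known for mitochondrial genes. The NRF1 motif was in 18.1% of them against 4.6% of all 32851 windows. The ETS motif CCGGAAG, bound by GABP among others, was in 37.3% against 8.86%, and the YY1 motif AAGATGGC in 14.5% against 2.75%. At least 1 of these motifs was in 59% of the member windows and 14.7% of all windows. The E-box CACGTG was in 8.43% against 7.15%, and the TATA sequence TATAAA in 8.43% against 13.6%. The windows were also richer in G and C, with a median of 59% against 52.7%. No background matched for G and C or for expression was used, so the motif shares are not shown to be particular to these genes. The ETS and YY1 motifs can overlap in AAG. These are matches of letters, and no binding was measured.

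For each of the first 3 motifs, the 100 bases before the start are shown for the ribosomal protein gene below 0 with the smallest p that holds the motif there, on the strand of the gene, with the motif in capitals.

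*Mrpl44*, NRF1 motif on the other strand, chr1:79775918-79776017, plus strand: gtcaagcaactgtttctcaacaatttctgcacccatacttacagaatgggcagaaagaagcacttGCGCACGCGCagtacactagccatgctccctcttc
*Mrpl34*, ETS motif, chr8:71464826-71464925, plus strand: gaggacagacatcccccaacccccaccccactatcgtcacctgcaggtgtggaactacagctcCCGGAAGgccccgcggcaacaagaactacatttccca
*Mrpl36*, YY1 motif on the other strand, chr13:73330909-73331008, plus strand: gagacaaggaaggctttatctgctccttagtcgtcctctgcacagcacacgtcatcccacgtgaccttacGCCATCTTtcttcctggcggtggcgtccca

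*Mrpl34* had a log2 fold change of -0.12 and *Mrpl36* one below 0 as well, and both were named by the search and not by the rule for named genes.

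The other genes of mitochondrial gene expression, 106 tested genes in 8 lists, were close to balanced. Of them 48 lay above and 58 below 0, with a median of -0.0069, and edgeR and DESeq2 each called 0. At an unadjusted p under 0.05 in edgeR, 1 of the 106 was higher, against 4.98% of all genes, and 3 were lower, against 4.17% of all genes. The higher one was *Rpusd3*, a pseudouridine synthase placed in the list of assembly factors, with a log2 fold change of 0.23 (SE 0.09). *Rbfa* and *Noa1*, assembly factors of the small subunit, had -0.11 (SE 0.04) and -0.10 (SE 0.04). The fourth was *mt-Co2*.

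The 5 ribosomal proteins with other symbols resembled the rest of the ribosome, with 4 below 0 and a median of -0.06. Their summed CPM was 217 and 219 in mice WT_1016 and WT_1018 and 203 to 211 in the other 4 mice. The 20 aminoacyl-tRNA synthetases and their partners had a median of 0.0071, the 22 assembly factors 0.0037, the 8 release and other translation factors -0.0052, the 21 genes of transcription and RNA processing -0.01, and the 10 genes of DNA replication 0.0098. The 7 regulators of mitochondrial biogenesis had 6 below 0 and a median of -0.05.

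The products of the system, the 13 mRNAs of the mitochondrial genome, did not follow the ribosomal proteins by mouse. Their summed CPM was 16530, 15760 and 15050 in the *Slc13a4*+/- mice and 15160, 16070 and 18260 in the wild-type mice. It was highest in WT_1026, where the ribosomal proteins were low. Of the 13, 9 lay below 0, with a median of -0.05. *mt-Co2*, a subunit of cytochrome c oxidase, had 92.0, 94.5 and 71.4 CPM against 106, 104 and 94.8, with no overlap and a log2 fold change of -0.24 (SE 0.10, unadjusted p 0.0381 in edgeR). Het_1027 was the lowest mouse, and without it the log2 fold change was -0.12. Nuclear copies of mitochondrial DNA may share the reads of these mRNAs.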

How the data were processed

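The authors prepared stranded, rRNA-depleted libraries from total RNA of the whole forebrain and quantified them with Salmon 1.2.0. Which transcripts and build the Salmon index held is not stated in the labels or the paper. For each transcript of each mouse they deposited expected counts (estimated counts that need not be whole), TPM, and the effective length in bases. The paper's methods then name tximeta and DESeq2. The deposited TPM values were used for levels and for average transcript lengths, and the deposited effective lengths, another unit in bases, were used for those averages alone.

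Of 117135 transcripts, 115973 were matched by identifier to GENCODE M21 (GRCm38), in 35523 genes. Unmatched transcripts carried 0.620% to 0.645% of each library. Counts were summed per gene and rounded, and filtered with filterByExpr. The main test was the quasi-likelihood test of edgeR 4.0.16 (R 4.3.3, TMM) across 17096 genes, with Benjamini-Hochberg adjustment and a threshold of 0.1. DESeq2 1.42.0 with average transcript lengths as offsets, limma-voom (limma 3.58.1) and other settings were alternatives, and the pipeline was tested on simulated data. The offsets are inferred from the tximeta import. Depth, 60340337 to 80410582 counts per mouse, limits genes and transcripts of few counts most. Promoters came from RefSeq (GRCm38.p6) and transcript sequences from GENCODE M21.

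The genes, lists, motifs and tests were chosen with earlier results of these data known. Genes named were the 10 factors, the 6 higher and 6 lower ribosomal protein genes of smallest p, the 3 highest and 3 lowest by TPM, up to 3 of each pathway list by p, of which those under an unadjusted 0.05 are printed, and *Tfb2m* and *Guf1* transcripts of at least 10 counts. The permutation test planned for the *Tfb2m* transcript share is not given, as the same contrast chose the gene. Other members named by an overlap, a shift or a motif were chosen after their values were seen. Mitochondrial rRNAs were not analysed here.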

Additional observations from a re-analysis of the deposited data

How the results depend on the processing

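No paired analysis was possible because the animal numbers are not shared between genotypes. The counts below include *Guf1* and *Tfb2m*, which were chosen by their rise. The main count of genes called by edgeR was 0. It was 2 in DESeq2 with length offsets (*Tfb2m* and *Guf1*), 1 in DESeq2 without them and 1 in edgeR with no filter on low counts (*Guf1* in both), and 0 to 1 when each mouse was left out. At an unadjusted p under 0.05 the main counts were 1 higher (*Guf1*) and 5 lower. The higher count was 2 in DESeq2 and in edgeR with length offsets and 0 on protein-coding transcripts alone. The lower count was 3 in DESeq2 with and without offsets, 2 with library size alone, and 1 to 24 when each mouse was left out (24 without WT_1026). The median of the ribosomal proteins ran from -0.082 to -0.030, and the count below 0 from 57 to 74, when each mouse was left out. In an alternative chosen after seeing the data, the 4 mice with the highest animal numbers, with 1 wild-type mouse assumed to vary like the rest, the median was 0.040, 23 genes lay below 0 and 0 were lower at an unadjusted p under 0.05. Also chosen after seeing the data, DESeq2 with offsets called 1 to 4 of the 88 genes when each mouse was left out, 4 without WT_1026 (*Mrps23*, *Mrpl28*, *Tfb2m* and *Guf1*), while the count over all genes ran from 34 to 720, with 720 without WT_1026. The *Tfb2m* protein-coding share differed by -17.4 percentage points in TPM in place of -3.57, as TPM weights short transcripts more, and by -3.85 to -3.10 when each mouse was left out. Genes near 0 changed sign. *Gfm2* was -0.027 in DESeq2 with offsets, -0.025 in edgeR with offsets, -0.050 on protein-coding transcripts and -0.033 without retained-intron transcripts. *Mrpl13* was -0.014 in DESeq2 and -0.012 in edgeR with offsets, and -0.0019 without retained-intron transcripts. With library size alone *Polrmt* was 0.0031 and *Mtif3* 0.0060, and *Mtif3* was 0.00019 with no filter and 0.0050 without retained-intron transcripts. On protein-coding transcripts *Tfb1m* was -0.033, *Tfam* 0.037, *Gfm1* -0.010, *Mtif2* 0.0053, *Mtif3* 0.0098 and *Mrps9* -0.014. When each mouse was left out, *Gfm2* ran from -0.026 to 0.049, *Mrpl13* from -0.031 to 0.052, *Polrmt* from -0.042 to 0.040, *Mtif3* from -0.023 to 0.033, *Mtif2* from -0.034 to 0.018, *Tfam* from -0.049 to 0.033, *Mrps22* from -0.0077 to 0.047 and *Mrpl1* from -0.0057 to 0.10. The cause was not tested.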
